A study of Homo sapiens with 12 samples.

Results

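The paxillin family is a group of adaptor proteins, here PXN (paxillin), TGFB1I1 (Hic-5) and LPXN (leupaxin), to which the antisense RNA of the PXN locus, PXN-AS1, was added. The members were taken by gene symbol, and all 4 had a row among the 36137 genes of the count table. RNA was sequenced from LNCaP, a human androgen-sensitive prostate cancer cell line first grown from a lymph node metastasis, in 4 groups of 3 libraries. The groups were PXN siRNA with 2.5 nM dihydrotestosterone (DHT), non-specific siRNA with DHT, PXN siRNA with ethanol vehicle and non-specific siRNA with vehicle. In each group cells were exposed to the siRNA for 48 h, kept without serum for 12 h and given hormone or ethanol for 24 h. How many PXN siRNAs were used, and their sequence, is not stated in these sources, so effects of the siRNA on other transcripts cannot be told apart from those of the loss of PXN. The labels do not say whether replicates were separate cultures, and the p-values cover only spread from library to library, which may be technical.

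Proteins of this family carry leucine-rich LD motifs at their amino end, which bind focal adhesion kinase, vinculin, parvins and GIT proteins, and LIM zinc finger domains at their carboxyl end, which hold them at focal adhesions. Paxillin is the broadly expressed member and a substrate of FAK and SRC, Hic-5 is known from smooth muscle, fibroblasts and TGF-beta responses, and leupaxin from leukocytes, osteoclasts and prostate cancer cells. Members of the family also enter the nucleus and have been described as transcriptional coregulators, and LNCaP cells respond to DHT.

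Because the coding genes are paralogs, sequence that they share bears on both siRNA action and read assignment. On GRCh38 with the GENCODE 29 annotation, PXN lies at chr12:120210439-120265771 on the minus strand, TGFB1I1 at chr16:31471585-31477960 on the plus strand and LPXN at chr11:58526871-58578220 on the minus strand. A comparison of the 22 PXN, 17 TGFB1I1 and 5 LPXN annotated transcripts found their longest identical runs in coding exons of the LIM region. The longest between PXN and TGFB1I1 had 20 bases (PXN exon 9, chr12:120214955-120214974; TGFB1I1 exon 8, chr16:31476036-31476055). It is shown in capitals with 15 flanking bases on each side.
PXN-201: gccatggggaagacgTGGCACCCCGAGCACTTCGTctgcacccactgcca
TGFB1I1-201: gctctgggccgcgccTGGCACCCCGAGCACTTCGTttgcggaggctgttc
The longest run between PXN and LPXN had 18 bases and crossed an exon junction in both genes (exons 9 and 10 of PXN, exons 6 and 7 of LPXN).
PXN-201: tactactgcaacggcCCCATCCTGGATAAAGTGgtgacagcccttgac
LPXN-201: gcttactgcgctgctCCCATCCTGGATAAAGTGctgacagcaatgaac
No 19-base word, the length of an siRNA core, was shared by PXN and LPXN, and 2 such words were shared by PXN and TGFB1I1. Whether an siRNA used here covers either run was not tested.

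The libraries held 34321000 to 38633456 counts, so that 1 TMM-scaled CPM (counts scaled to library size) stood for 33.65 to 38.2 counts. Of 10 luminal prostate markers, all were found in every group, with summed levels of 3401 to 4080 CPM (PXN siRNA with DHT), 7250 to 7983 CPM (non-specific siRNA with DHT), 2726 to 3199 CPM (PXN siRNA with vehicle) and 4317 to 4880 CPM (non-specific siRNA with vehicle). Of the 3 basal markers, KRT5 and TP63 had at most 3 counts in any library and KRT14 had 2 to 19. KRT14 was lower with PXN siRNA under DHT (log2 -1.24, edgeR adjusted p = 0.0182) and higher with DHT in cells with non-specific siRNA (2.05, edgeR adjusted p = 0.0155). Both comparisons include non-specific siRNA with DHT, where the summed basal level was highest (0.332 to 0.567 CPM). It was 0.166 to 0.332 CPM with PXN siRNA and DHT, and at most 0.189 CPM with vehicle. KRT14 may have been kept for testing mainly through that highest group, so no change of KRT14 is read from these tests. PTPRC, the pan-leukocyte marker, had at most 3 counts. Bulk libraries cannot tell fewer cells of a kind apart from less RNA per cell.

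PXN fell to under 20% of its level with the siRNA meant for it, which checks the labels. With DHT, PXN had 19.96, 18.1 and 16.6 CPM in the PXN siRNA libraries, against 113, 99.7 and 104 CPM in the non-specific siRNA libraries. With vehicle it had 15.2, 21.2 and 14.9 CPM with PXN siRNA, against 112, 106 and 108 CPM with non-specific siRNA. Every PXN siRNA library lay far below every non-specific siRNA library, and counts behind the low values were 558 to 789 per library. The log2 fold change was -2.54 ± 0.11 (SE) under DHT (edgeR adjusted p = 9.52e-09) and -2.66 ± 0.11 under vehicle (edgeR adjusted p = 7.73e-09), with n = 3 libraries per group. PXN kept 17.2% of its level under DHT and 15.8% under vehicle, and only 0.0325% and 0.0217% of the 18468 tested genes had a fold change as low. The depth of the knockdown varied most under vehicle, where replicate 2 retained more PXN (789 counts) than replicates 1 and 3 (558 and 569 counts).

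LPXN, the leupaxin gene, was about 2-fold higher in cells with PXN siRNA under both treatments. It had 14.4, 10.9 and 14.5 CPM in PXN siRNA libraries with DHT, against 5.85, 6.78 and 6.003 CPM in non-specific siRNA libraries with DHT. With vehicle the values were 13.7, 12.2 and 13.96 CPM with PXN siRNA, against 6.67, 7.68 and 5.52 CPM with non-specific siRNA. The groups did not overlap under either treatment, and counts ranged over 393 to 534 per library with PXN siRNA and 192 to 284 with non-specific siRNA. LPXN rose 2.14-fold under DHT (log2 1.09 ± 0.14 SE, edgeR adjusted p = 1.23e-05) and 2.01-fold under vehicle (log2 1.00 ± 0.13, edgeR adjusted p = 2.74e-05; n = 3 per group). Across the whole transcriptome, 25% of tested genes were called higher under DHT and 23.9% under vehicle. A fold change at least as high as that of LPXN was seen for 8.23% of them under DHT and 8.64% under vehicle. In both treatments the PXN siRNA library with the lowest LPXN was replicate 2, and under vehicle that library also had the highest PXN. Under DHT, however, PXN was highest in replicate 1 (19.96 CPM), where LPXN was at 14.4 CPM. With group means subtracted, Pearson's r between PXN and LPXN in log2(CPM + 1) was -0.33 over the 12 libraries. When each of the 12 libraries was left out in turn, the LPXN log2 fold change stayed between 1.01 and 1.20 under DHT and between 0.88 and 1.10 under vehicle.

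TGFB1I1, which encodes Hic-5, was close to the detection limit of these libraries. It had 18, 12 and 22 counts in PXN siRNA libraries with DHT, against 5, 8 and 13 counts in non-specific siRNA libraries with DHT. With vehicle it had 20, 9 and 13 counts with PXN siRNA, against 3, 7 and 9 counts with non-specific siRNA. Values of the siRNA groups overlapped under both treatments. As levels these were 0.478 ± 0.138 CPM against 0.250 ± 0.125 CPM under DHT and 0.376 ± 0.154 CPM against 0.179 ± 0.0863 CPM under vehicle (PXN siRNA before non-specific siRNA, SD, n = 3 each). Summed over the group, 52 counts (95% Poisson interval 38.8 to 68.2) stood against 26 (16.98 to 38.1) under DHT, and 42 (30.3 to 56.8) against 19 (11.4 to 29.7) under vehicle; these intervals cover counting error only. The fold changes were near those of LPXN but with a larger error, log2 0.93 ± 0.44 under DHT (edgeR adjusted p = 0.0906) and 1.05 ± 0.48 under vehicle (edgeR adjusted p = 0.0831), and neither passed the test. Without replicate 3 of the non-specific siRNA with DHT, the gene passed under DHT (log2 1.35, edgeR adjusted p = 0.0443). It was kept for testing mainly through the PXN siRNA libraries, since at least 10 counts were reached in 5 of 6 of those and in 1 of 6 with non-specific siRNA. At this depth a change of TGFB1I1 was not established in either direction.

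Stromal and smooth muscle markers, from cells in which Hic-5 is abundant, went both ways with PXN siRNA. Of 12 such markers 8 were tested, of which 4 rose and 3 fell under DHT, and 3 rose and 2 fell under vehicle (edgeR). Beside these, 25% of all tested genes were called higher and 26.7% lower under DHT, and 23.9% and 26.3% under vehicle. VIM, COL1A1 and TAGLN rose under both treatments and MYH11 under DHT; COL3A1 and LUM fell under both and PDGFRB under DHT. Their summed level was 75.2 to 87.3 CPM against 35.1 to 43.7 CPM under DHT and 71.1 to 91.0 CPM against 37.98 to 45.6 CPM under vehicle, in PXN siRNA and non-specific siRNA libraries. VIM (3.60 to 40.6 CPM), which many epithelial lines express, and COL1A1 (18.8 to 38.3 CPM) made up most of that sum. Over all libraries ACTA2 had 84 to 152 counts, TAGLN 150 to 345 and COL3A1 101 to 277, while CNN1, DES, DCN and COL1A2 had at most 3. MYH11 had 19 to 51 counts, LUM 2 to 29 and PDGFRB 5 to 29, so their calls rest on few counts. The part of these markers in the TGFB1I1 values was not tested. For leukocytes, where leupaxin is abundant, 7 of 10 markers had a row, and LCP1, at 228 to 406 CPM, made up nearly all of the sum; PTPRC, MS4A1 and LYZ had at most 3 counts.

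**Figure D1:**
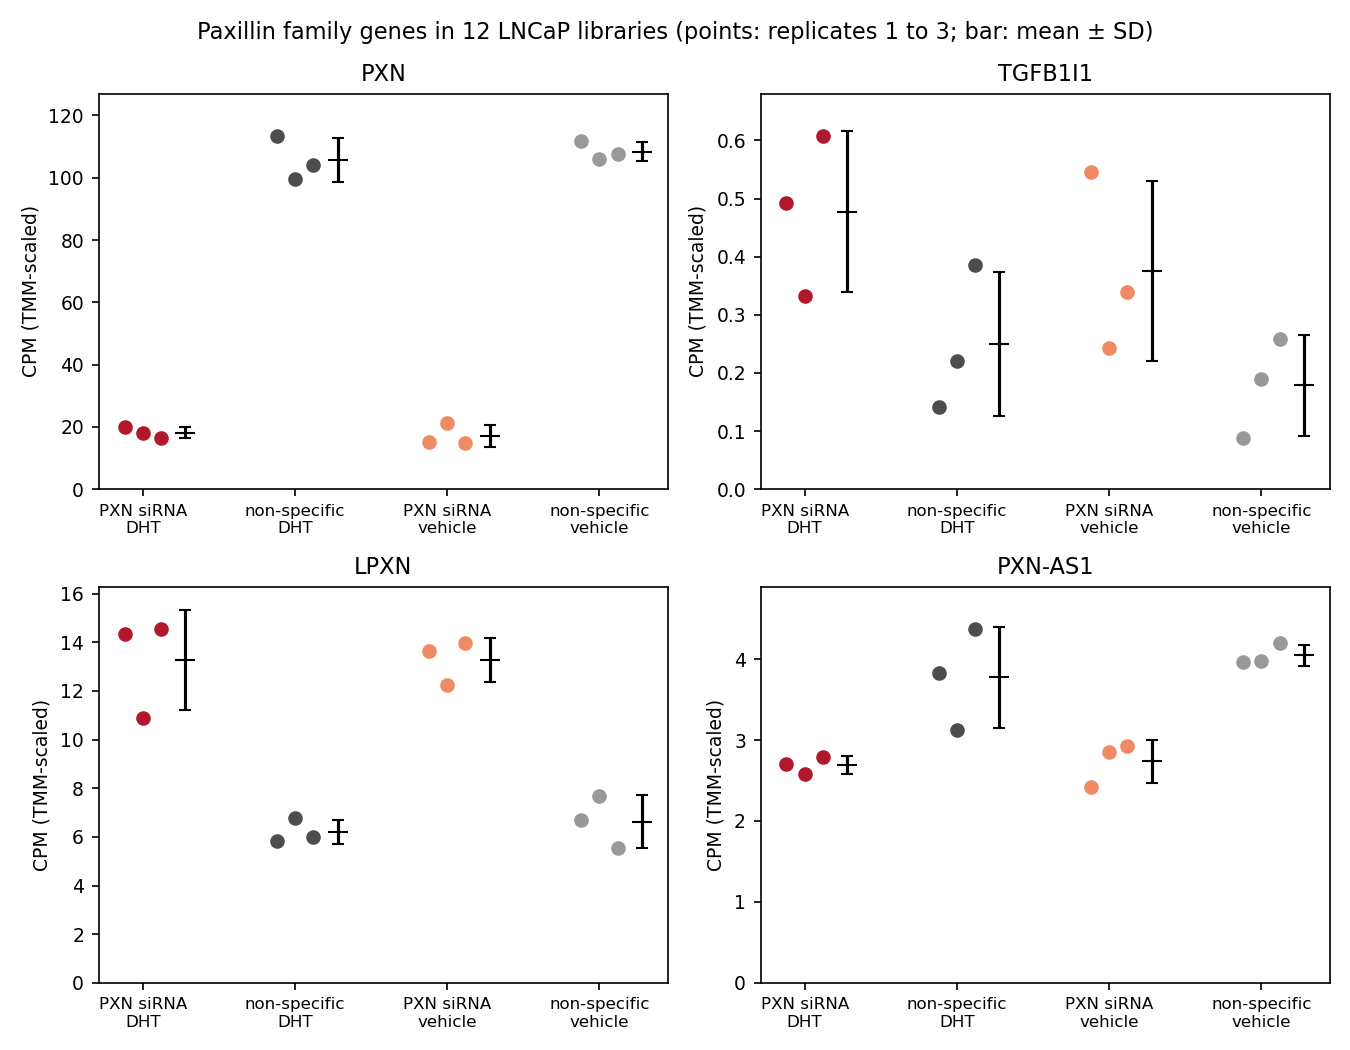
TMM-scaled CPM of PXN, TGFB1I1, LPXN and PXN-AS1 (1 panel each, y axis from 0) in the 4 groups; points are replicates 1 to 3 and the bar beside them is the mean ± SD. PXN siRNA libraries lay below non-specific siRNA libraries for PXN and PXN-AS1 and above them for LPXN, whereas TGFB1I1, at under 0.61 CPM throughout, overlapped under both hormone conditions.

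Scaled to gene length, LPXN took over as the leading family transcript in cells with PXN siRNA. In CPM not scaled to length, PXN stayed above LPXN in every PXN siRNA library. Levels were divided by the exonic bases of each gene (7460 for PXN, 5403 for TGFB1I1 and 2467 for LPXN). The family total was 7.90 ± 0.890 CPM per kb with PXN siRNA and 16.7 ± 0.766 with non-specific siRNA under DHT. Under vehicle it was 7.75 ± 0.0958 with PXN siRNA and 17.2 ± 0.503 with non-specific siRNA (SD, n = 3 libraries each). The family as a whole was therefore lower in every PXN siRNA library, although LPXN was higher. LPXN made up 67.8% ± 3.81 of the total with PXN siRNA and 15.1% ± 1.80 with non-specific siRNA under DHT, and 69.6% ± 5.54 and 15.5% ± 2.28 under vehicle. PXN accounted for 31.1% and 84.6% under DHT and for 29.5% and 84.3% under vehicle, in the same order of siRNAs. TGFB1I1 averaged 1.11% and 0.279% under DHT and 0.900% and 0.193% under vehicle. With the length of 1 principal transcript per gene its share was 2.19% and 0.448% under DHT and 1.77% and 0.311% under vehicle. By those lengths LPXN made up 58.8% and PXN 39.1% with PXN siRNA under DHT, and 60.5% and 37.7% under vehicle. The gain of LPXN amounted to 24.4% of the loss of PXN under DHT and 22.1% under vehicle, and to 16.6% and 15.1% with principal transcript lengths. These are amounts of RNA, and the proteins were not measured.

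**Figure D2:**
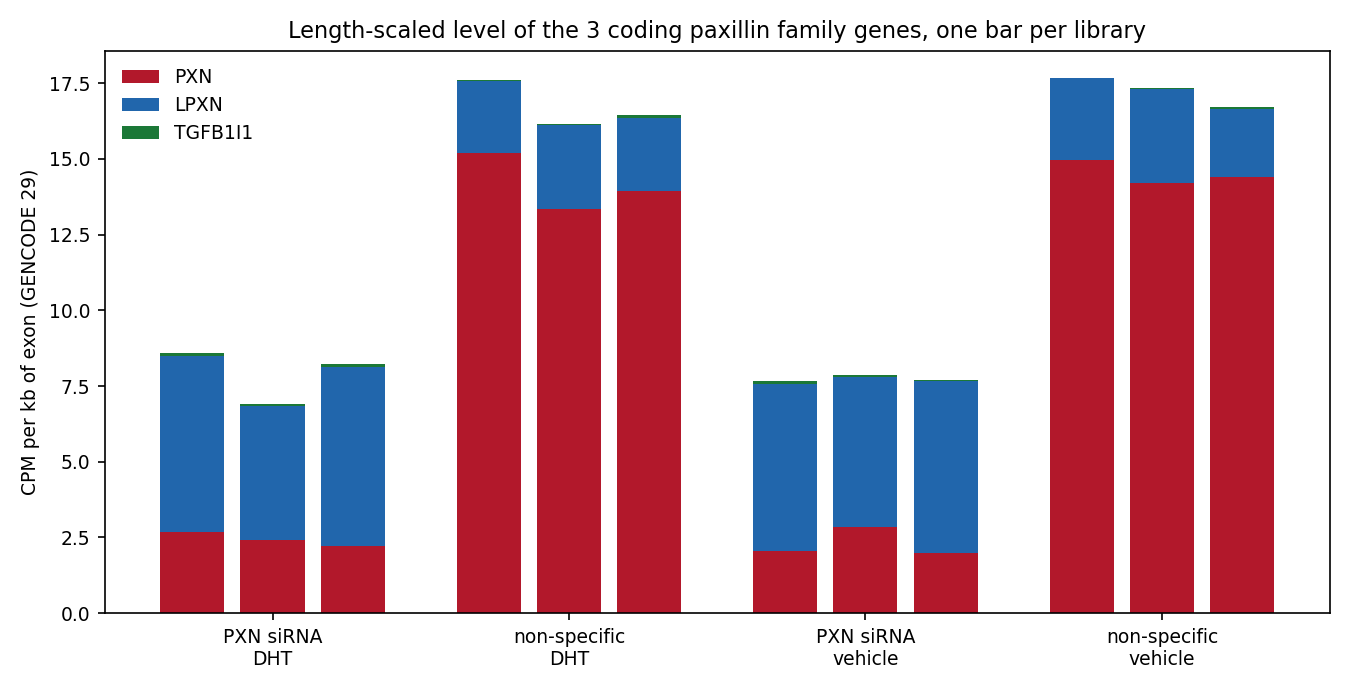
Level per kilobase of exon (y axis, CPM per kb, from 0) of PXN, LPXN and TGFB1I1 stacked in 1 bar for each of the 12 libraries, by group. With PXN siRNA the bars reach 6.90 to 8.59 and are mostly LPXN, and with non-specific siRNA they reach 16.1 to 17.7 and are mostly PXN.

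PXN-AS1, a long noncoding RNA from the opposite strand that overlaps the end of PXN, was also lower with PXN siRNA. The gene lies at chr12:120201291-120213138 on the plus strand, and 918 of its exonic bases, 38.6% of the total, face exons of PXN. It had 2.71, 2.58 and 2.79 CPM in PXN siRNA libraries with DHT, against 3.83, 3.13 and 4.37 CPM in non-specific siRNA libraries with DHT. With vehicle it had 2.42, 2.85 and 2.93 CPM with PXN siRNA, against 3.96, 3.98 and 4.20 CPM with non-specific siRNA. The groups were apart in both treatments, by a narrow margin under DHT. The gene fell by 0.49 ± 0.14 on the log2 scale under DHT (edgeR adjusted p = 0.0112), and by 0.56 ± 0.14 under vehicle (edgeR adjusted p = 0.00446). It kept 71.3% and 67.6% of its level. Without replicate 3 of non-specific siRNA with DHT the change under DHT no longer passed (log2 -0.39, edgeR adjusted p = 0.0543). Libraries were made with a stranded kit, but whether counting used strand is not stated in these sources. If strand was ignored, reads from PXN and PXN-AS1 in the overlap cannot be told apart.

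In sum, 3 of the 4 family genes were called under each treatment, PXN and PXN-AS1 lower and LPXN higher. The background is high: 51.8% of all tested genes were called under DHT and 50.2% under vehicle. Likewise the siRNA groups did not overlap for those 3 genes, which was true of 59.9% of tested genes under DHT and 56.9% under vehicle. A call or a separation of groups is therefore common in these libraries, and it is the size of the PXN change that stood out from the other genes.

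Promoter sequence of PXN and LPXN is shown as a description of these genes. PXN is the gene that the siRNA was meant for, and a part of the promoters in either change was not tested. The windows are the 250 bases before each start in RefSeq on GRCh38.p14, and the parts free of annotated exons are printed, 5′ to 3′ on the strand of the gene. In the PXN promoter, chr12:120265772-120265980 on the minus strand, capitals mark the GC box GGGCGG, bound by SP1, on either strand.
PXN promoter: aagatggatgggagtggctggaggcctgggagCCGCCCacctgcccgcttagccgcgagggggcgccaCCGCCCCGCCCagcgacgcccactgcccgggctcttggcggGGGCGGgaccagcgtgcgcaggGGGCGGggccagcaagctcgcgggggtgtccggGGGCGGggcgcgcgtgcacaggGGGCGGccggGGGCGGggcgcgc
In the LPXN promoter, chr11:58578221-58578383 on the minus strand, capitals mark TGANTCA, the AP-1 motif.
LPXN promoter: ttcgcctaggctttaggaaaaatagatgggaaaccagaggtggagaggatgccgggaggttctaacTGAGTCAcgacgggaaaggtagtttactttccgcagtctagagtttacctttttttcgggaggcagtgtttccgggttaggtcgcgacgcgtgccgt
The PXN window had 8 matches to GGGCGG, which 42.3% of 27305 promoter windows hold at least once, and a GC content of 81.3% in the printed part, against 51.5% in that of LPXN. TGANTCA occurred once in the LPXN window, in none of the windows of PXN, TGFB1I1 and PXN-AS1, and in 6.6% of all windows. CCAAT, in 33% of windows, occurred once for LPXN and 3 times for PXN-AS1. The core of the interferon-stimulated response element (3.07% of windows) and the ETS motif CCGGAAGT (3.64%) were in none of the 4. These matches are descriptions of letters, not of binding.

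Neighbouring genes did not all move with the members. ZFP91, a zinc finger protein gene that starts 891 bases from LPXN in the opposite direction, fell while LPXN rose. It averaged 74.1 ± 2.91 CPM against 118 ± 5.42 CPM under DHT and 75.2 ± 3.68 CPM against 125 ± 7.60 CPM under vehicle (PXN siRNA before non-specific siRNA, SD, n = 3 each), a log2 change of -0.68 and -0.74 (edgeR adjusted p = 1.06e-06 and 5.15e-07). RPLP0, a ribosomal protein gene whose start is 56 bases from that of PXN-AS1 in the opposite direction, fell together with it, by 0.34 under DHT and 0.33 under vehicle on the log2 scale (edgeR adjusted p = 0.00319 and 0.00363). RPLP0 is also the nearest listed gene downstream of PXN. Upstream of PXN lies the pseudogene NME2P1, which averaged at most 0.338 CPM in any group. Its log2 change was 0.77 under DHT and 1.24 under vehicle, and only the second passed (edgeR adjusted p = 0.152 and 0.0144). ARMC5 and SLC5A2, on either side of TGFB1I1, had log2 changes of 0.06 and -0.10 under DHT and of -0.05 and -0.00 under vehicle, with edgeR adjusted p of at least 0.584.

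DHT left no detectable mark on any family gene. In cells with PXN siRNA the log2 change of DHT over vehicle was 0.09 for PXN (interval of 2 SE on each side, -0.14 to 0.32), -0.00 for LPXN (-0.26 to 0.25), -0.02 for PXN-AS1 (-0.32 to 0.27) and 0.35 for TGFB1I1 (-0.47 to 1.16). In cells with non-specific siRNA it was -0.04 for PXN (-0.25 to 0.17), -0.09 for LPXN (-0.37 to 0.19), -0.10 for PXN-AS1 (-0.38 to 0.18) and 0.46 for TGFB1I1 (-0.58 to 1.503). The smallest of the 8 edgeR adjusted p-values was 0.747, and DHT and vehicle values overlapped for all 4 genes with either siRNA. Among all tested genes 0.184% were called for DHT with PXN siRNA (34 genes, or 346 with the replicate number as a block) and 4.87% with non-specific siRNA (900 genes, or 2236 with the block; 2.72% higher and 2.16% lower). DHT and vehicle values did not overlap for 13.6% of genes with PXN siRNA and for 20.3% with non-specific siRNA. For PXN, LPXN and PXN-AS1 these intervals leave room for changes of at most 0.38 on the log2 scale in either direction, while for TGFB1I1 a change of over 2-fold lies within them.

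The effect of PXN siRNA was of similar size in both treatments. Its log2 change under DHT minus that under vehicle was 0.13 for PXN (2 SE interval -0.19 to 0.44), 0.09 for LPXN (-0.29 to 0.47), 0.08 for PXN-AS1 (-0.33 to 0.48) and -0.12 for TGFB1I1 (-1.41 to 1.17). The edgeR adjusted p was 1.000 for each, and 0% of genes were called in this comparison by edgeR, although 778 had an unadjusted p under 0.05 and DESeq2 called 30. These comparisons share libraries with the ones above and are not independent of them.

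**Figure D3:**
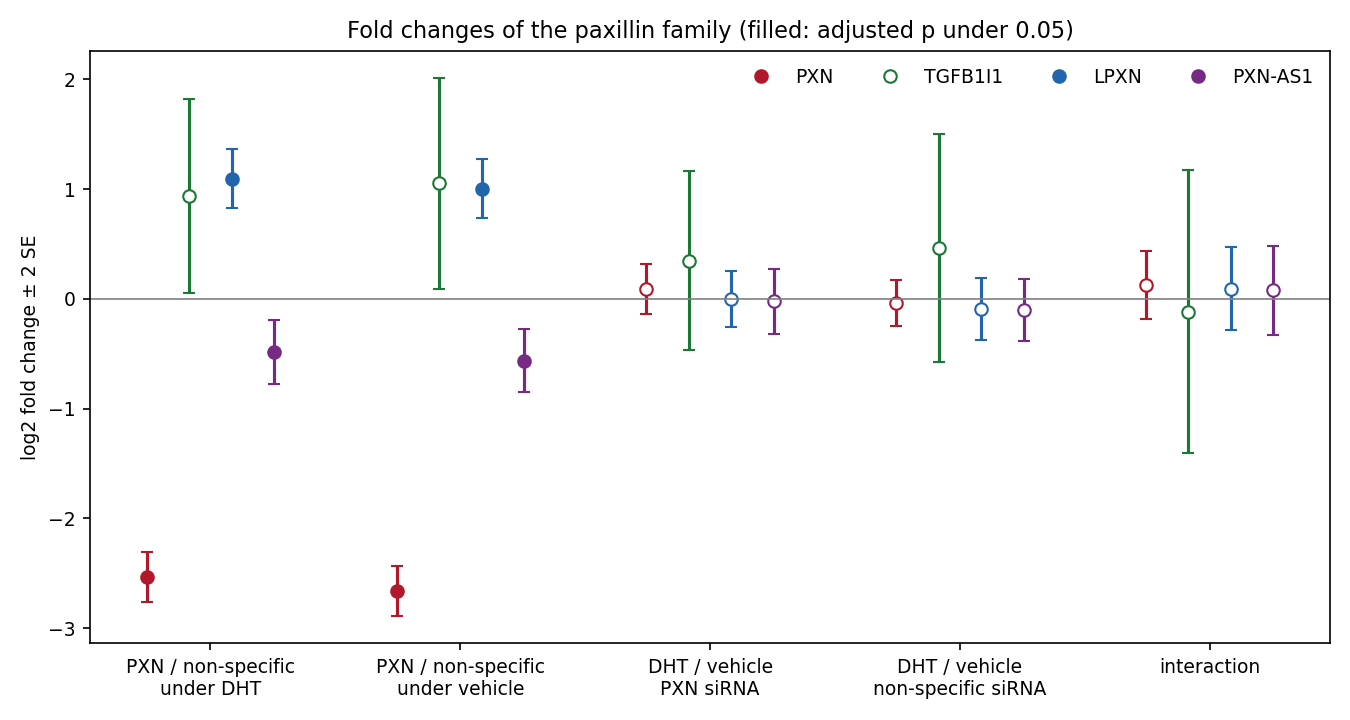
Log2 fold changes (y axis) of the 4 family genes with bars of 2 SE on each side, for PXN siRNA over non-specific siRNA under each treatment, DHT over vehicle with each siRNA, and the interaction; filled points passed an adjusted p of 0.05. Filled points occur in the siRNA comparisons for PXN (-2.54 and -2.66), LPXN (1.09 and 1.00) and PXN-AS1 (-0.49 and -0.56), and all DHT and interaction points are open with bars that cross 0.

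Genes that followed PXN most closely over the 12 libraries were those with the same split between siRNAs. By Pearson's r of log2(CPM + 1), among 11079 genes with at least 5 CPM on average, the nearest were EI24 (0.999), a membrane protein of the endoplasmic reticulum, VPS25 (0.998), a subunit of the ESCRT-II sorting complex, TAF6 (0.998), a subunit of TFIID, MYD88 (0.998), the adaptor of Toll-like receptors, and KCTD20 (0.998). All 5 fell with PXN siRNA, VPS25 by the most (log2 -1.89 under DHT and -1.999 under vehicle). For LPXN the nearest were ALPK1 (0.990), an alpha-kinase of innate immunity, DDIT3 (0.987), the stress-induced transcription factor CHOP, DNAJC27 (0.987), ESYT3 (0.985) and GPC4 (0.985), a cell-surface glypican. These rose with PXN siRNA, DDIT3 by 1.48 under DHT and 1.40 under vehicle on the log2 scale. After the group means were subtracted, ALPK1 was still the gene nearest to LPXN (r = 0.977). For PXN-AS1 the nearest were MCTS1 (0.972), CWF19L2 (0.972), RAB13 (0.970) and PSMB7 (0.969), and for TGFB1I1, at its low counts, TRAPPC10 (0.934) and KIF13A (0.900) led. Since the 12 libraries fall into siRNA groups, these values describe a shared difference between groups and carry no p.

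Genes of paxillin's partners were counted in 7 lists, in which a gene may stand more than once; the lists describe, and no list was tested. The LD motif list held 16 tested genes, of LD motif partners and of proteins linked to paxillin in other ways. Of these, 7 rose and 3 fell under DHT and 6 rose and 4 fell under vehicle. Median log2 changes were 0.18 and 0.06, beside 0.03 and 0.02 over all tested genes. Higher calls were made for 25% of all tested genes under DHT and 23.9% under vehicle, and lower calls for 26.7% and 26.3%. PTPN12, the PTP-PEST phosphatase that acts on paxillin and CAS, had 92.0, 67.4 and 81.0 CPM in PXN siRNA libraries with DHT, against 39.4, 34.6 and 34.9 CPM with non-specific siRNA, with no overlap. It rose by 1.14 under DHT and 1.08 under vehicle on the log2 scale (edgeR adjusted p = 9.20e-07 and 1.44e-06). ARHGEF7, the exchange factor beta-PIX that partners GIT proteins, rose by 0.45 and 0.46. PARVB, an LD-binding parvin, fell by 0.95 and 0.96 (edgeR adjusted p = 3.74e-06 and 3.45e-06), and BCL2, the apoptosis inhibitor, fell by 0.53 and 0.82. The other genes called lower under vehicle were VCL and GIT1, named after their values were seen. PTK2, the gene of focal adhesion kinase, had 125 CPM against 120.0 CPM under DHT and 131 CPM against 129 CPM under vehicle (PXN siRNA before non-specific siRNA), and did not pass (edgeR adjusted p = 0.459 and 0.751).

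Among 23 tested genes of the ILK, PINCH, talin, kindlin and zyxin scaffold, 6 rose and 6 fell under DHT and 7 rose and 6 fell under vehicle, with medians of 0.02 and 0.06. Of all tested genes 51.8% were called under DHT and 50.2% under vehicle, so calls in this list were near the background. LIMS1, which encodes the LIM-only protein PINCH1, averaged 24.3 ± 1.79 CPM against 49.97 ± 3.10 CPM under DHT and 23.8 ± 1.14 CPM against 50.6 ± 5.01 CPM under vehicle (PXN siRNA before non-specific siRNA, SD, n = 3 each). It fell by 1.04 and 1.09 on the log2 scale (edgeR adjusted p = 2.72e-07 and 1.79e-07), and FERMT1, kindlin-1, fell by 1.09 and 1.15. SORBS2, an adaptor of the vinexin family, rose by 0.35 under DHT and 0.68 under vehicle.

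The signalling list of SRC, CAS and CRK had more lower than higher calls. Of 26 tested genes, 8 rose and 12 fell under DHT and 5 rose and 12 fell under vehicle, with medians of -0.15 and -0.07. Background shares were 25% higher and 26.7% lower under DHT, and 23.9% higher and 26.3% lower under vehicle. DOCK1, the exchange factor for RAC downstream of CRK, fell to 35.0 ± 2.13 CPM with PXN siRNA against 67.5 ± 1.46 CPM with non-specific siRNA under DHT, and to 33.8 ± 2.56 CPM against 64.8 ± 3.17 CPM under vehicle (SD, n = 3 each). CRKL, an adaptor that binds tyrosine-phosphorylated paxillin, fell by 0.88 and 0.78 on the log2 scale, and both genes passed (edgeR adjusted p of at most 6.44e-07). NEDD9, a member of the CAS family, rose by 0.73 under DHT and 0.55 under vehicle, and SOS1, an exchange factor for RAS, by 0.34 and 0.34. CRK, RASA1 and ELMO1 (0.0541 to 0.523 CPM) were the other genes called higher under vehicle, named after their values were seen.

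Genes of the ERK axis and of nuclear partners were mostly lower. Of 18 tested, 2 rose and 11 fell under DHT and 1 rose (EGR1, named after its values were seen) and 11 fell under vehicle, with medians of -0.23 under each. Lower calls made up 26.7% of all tested genes under DHT and 26.3% under vehicle, and higher calls 25% and 23.9%. CCND1, cyclin D1, had 152, 164 and 146 CPM in PXN siRNA libraries with DHT, against 329, 337 and 352 CPM in non-specific siRNA libraries with DHT. With vehicle it had 135, 150 and 136 CPM with PXN siRNA, against 312, 301 and 326 CPM with non-specific siRNA. The siRNA groups lay far apart in both treatments, and CCND1 fell by 1.14 under DHT and 1.16 under vehicle on the log2 scale (edgeR adjusted p = 4.48e-08 and 4.37e-08).

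**Figure D4:**
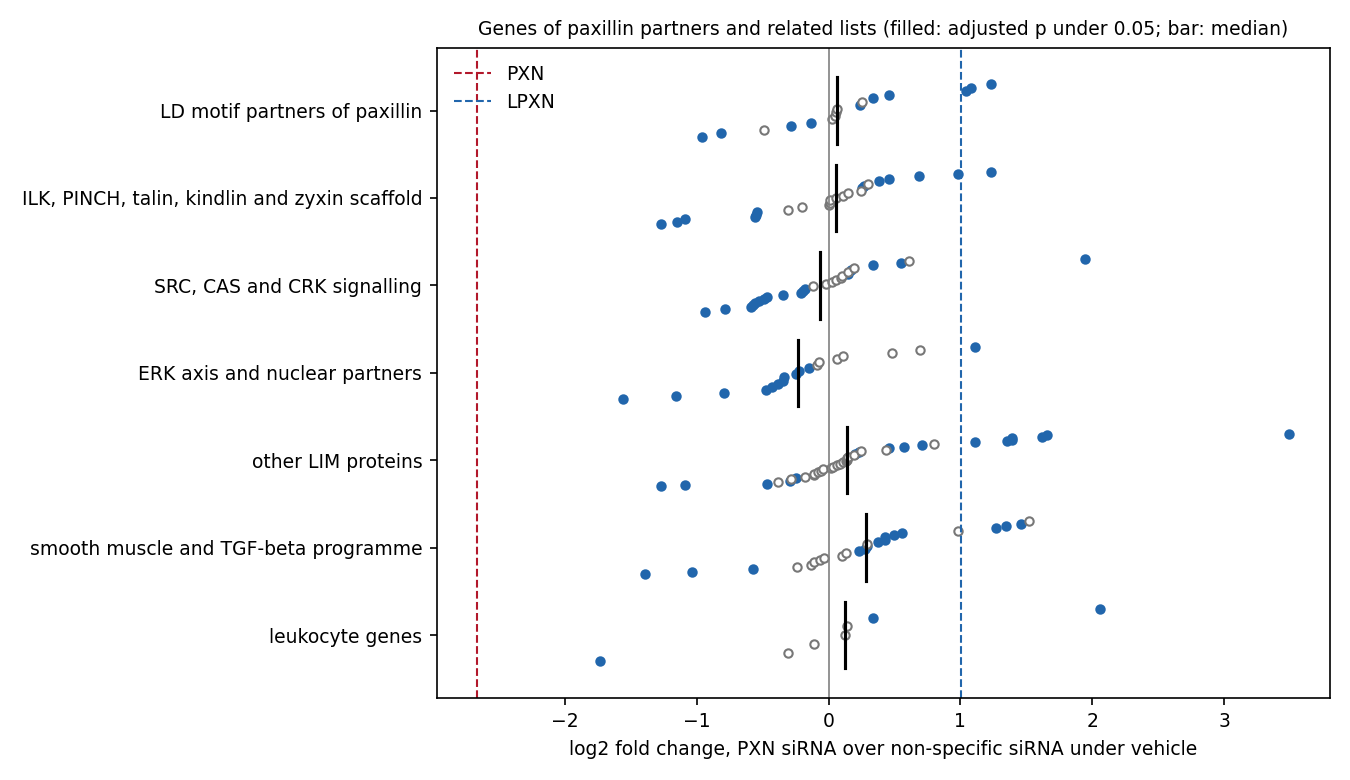
Log2 fold changes of PXN siRNA over non-specific siRNA under vehicle (x axis) for the tested genes of 7 lists (rows); filled points passed an adjusted p of 0.05, black bars are list medians and dashed lines mark PXN (-2.66) and LPXN (1.00). Medians run between -0.23 for the ERK axis and nuclear partners and 0.28 for the smooth muscle and TGF-beta programme, and no listed gene fell as far as PXN.

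Other LIM domain genes moved in both directions. Of 38 tested, 16 rose and 7 fell under DHT and 12 rose and 5 fell under vehicle, with medians of 0.16 and 0.14; over all tested genes 25% were called higher and 26.7% lower under DHT, and 23.9% higher and 26.3% lower under vehicle. CRIP2, a small LIM protein of muscle and vessels, averaged 30.6 ± 5.201 CPM with PXN siRNA against 14.2 ± 2.10 CPM with non-specific siRNA under DHT, and 28.7 ± 7.93 CPM against 10.98 ± 2.54 CPM under vehicle (SD, n = 3 each). It rose by 1.10 and 1.39 on the log2 scale, and LMO7 rose by 0.57 and 0.71. LIMK1, the kinase of cofilin, fell by 0.49 and 0.47. LIMS1, described above, LIMS2, PRICKLE3 and LIMD1 were the other genes called lower under vehicle. The last 3 were named after their values were seen. LIMS2 stood at only 0.0545 to 0.379 CPM and did not pass under DHT (log2 -0.57, edgeR adjusted p = 0.292).

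For the tissues in which the paralogs are best known, smooth muscle and TGF-beta genes had more higher than lower calls. Leukocyte genes went both ways. Of 24 tested genes of smooth muscle and TGF-beta signalling, 12 rose and 4 fell under DHT and 11 rose and 3 fell under vehicle, with medians of 0.28 under each. For these and the other counts here, 25% of all tested genes were called higher and 26.7% lower under DHT. Under vehicle those shares were 23.9% and 26.3%. TGFBR2, the type II receptor of TGF-beta, averaged 4.53 ± 1.17 CPM with PXN siRNA against 1.66 ± 0.478 CPM with non-specific siRNA under DHT, and 5.23 ± 1.28 CPM against 1.90 ± 0.277 CPM under vehicle (SD, n = 3 each). LTBP1, which tethers latent TGF-beta to the matrix, rose by 1.60 and 1.35 on the log2 scale. CALD1, caldesmon, fell by 0.95 and 1.03, and SRF, the factor that drives many actin genes, by 0.62 and 0.58; the third gene called lower under vehicle was MYL9, named after its values were seen. The stromal markers, whose members went both ways with PXN siRNA (4 of 8 tested higher and 3 lower under DHT, 3 higher and 2 lower under vehicle), are given after TGFB1I1 above, and their part in these counts was not tested. Of 7 tested leukocyte genes, 3 rose and 2 fell under DHT and 2 rose and 1 fell under vehicle. PTK2B, the FAK relative PYK2 that binds leupaxin, rose by 0.31 and 0.34, and ITGAM and CORO1A, both under 1.99 CPM in each library, were the other genes called under vehicle and were named after their values were seen.

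For DHT, list counts are given first without and then with the replicate number as a block. With PXN siRNA the gene called in these lists was TNS3, alone in either fit. Of all 18468 tested genes 0.184% were called without the block, and 346 genes with it. TNS3 is a tensin gene and stood at 1.21 ± 0.207 CPM with DHT against 0.490 ± 0.0327 CPM with vehicle (SD, n = 3 each; log2 1.30, edgeR adjusted p = 0.0322). This call was lost with limma-voom and with only the groups compared. It was also lost without any 1 of replicates 1 to 3 of PXN siRNA with vehicle and of replicates 2 and 3 of PXN siRNA with DHT (log2 1.20 to 1.35, edgeR adjusted p up to 0.185). With non-specific siRNA the calls numbered 1 of 16 genes of the LD motif list, 2 of 23 scaffold genes and 2 of 26 SRC, CAS and CRK genes. They further numbered 3 of 18 ERK and nuclear genes, 4 of 38 LIM genes, 1 of 24 smooth muscle genes and 1 of 7 leukocyte genes. Beside these, 4.87% of all tested genes were called. With the block the list calls were 5, 7, 2, 3, 11, 6 and 2 in the same order of lists, while 2236 of all 18468 tested genes were called. Without the block, TNS3 rose in cells with non-specific siRNA. It stood at 3.13 ± 0.457 CPM with DHT against 0.565 ± 0.0529 CPM with vehicle (log2 2.46, edgeR adjusted p = 1.97e-05). SORBS2, EGFR and LIMCH1 rose by 0.49, 0.44 and 0.49, and PAK1, a kinase that GIT and PIX proteins bring to paxillin, and AJUBA, a LIM protein of cell junctions, fell by 0.50 and 0.46 on the log2 scale. The interaction was called for no gene of the 7 lists, with or without the block (edgeR), so that a difference in the DHT response of these genes between siRNAs was not established.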

How the data were processed

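Raw gene counts of 12 LNCaP libraries, 3 in each of 4 groups placed by their own labels, were analysed. The table deposited by the authors gives raw counts (whole numbers) by gene symbol, made with featureCounts of Subread 1.5.0p3 after Trimmomatic 0.32 and STAR 2.4.2a on GRCh38, per the submitters' processing notes. The strand setting, the annotation and the handling of multiply mapped reads are not stated in these sources, so reads in sequence shared by paralogs or by both strands may be assigned differently. The library kit was TruSeq Stranded mRNA, per the labels.

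Genes were filtered with filterByExpr (18468 of 36137 kept), scaled by TMM and fitted in edgeR 4.0.16 (R 4.3.3) with a quasi-likelihood model of 4 group means (8 residual degrees of freedom). Tests were two-sided, p-values were adjusted by Benjamini-Hochberg over all tested genes, and genes with an adjusted p under 0.05 were called. SEs were taken from the fold change and F statistic. Alternatives used limma 3.58.1 and DESeq2 1.42.0, other scalings and filters, a replicate block, the groups compared alone, and 1 library left out at a time. On simulated counts for PXN siRNA under vehicle, with 18468 genes, 97% of 2-fold and 100% of 4-fold changes were recovered. Changes were planted in a small set of well-counted genes, and libraries were drawn without pairing. This recovery therefore does not cover genes with as few counts as TGFB1I1. No replicates agreed within sampling noise (chi-square per gene 6.7 to 29.8).

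Replicate numbers come from the labels. Same-numbered libraries deviated together in every pair of the 4 comparisons of groups (r 0.155 to 0.557), so the numbers were taken to pair them. Over the 18 pairs of the interaction r was 0.0223 to 0.557. The main fit did not use this pairing, and the replicate block was an alternative. With the block, 10869 of all tested genes were called for PXN siRNA under DHT and 10628 under vehicle. In the 7 partner lists, in the order given above, calls with the block were 11, 13, 20, 13, 26, 17 and 5 under DHT. Under vehicle they were 12, 14, 20, 12, 23, 16 and 3.

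The members, partner lists and tests were chosen with earlier results of these data known. Partner genes named are, per list, up to 2 rises and 2 falls by largest fold change under vehicle among called genes whose higher group averaged 5 CPM or more, and for DHT up to 2 with the smallest p; others are marked. Some genes that these rules select are not reported here. Likeness names the 5 genes with the highest r, and neighbours are the nearest listed genes. Gene lengths and positions are from GENCODE 29, and promoter sequences from RefSeq (GRCh38.p14).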

Additional observations from a re-analysis of the deposited data

How the results depend on the processing

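Over all alternatives, 385 of 387 values of the 4 family genes kept their call. The exceptions arose under DHT without replicate 3 of non-specific siRNA: TGFB1I1 passed (log2 1.35; 0.64 to 1.35 over the libraries left out) and PXN-AS1 did not (-0.39; -0.63 to -0.39). With the replicate block PXN-AS1 had adjusted p = 0.00533 under DHT and TGFB1I1 0.0641, and no family call changed. TGFB1I1 had no value with a filter of 1 CPM on average, and a further value was missing in every comparison except PXN siRNA under DHT. It had 17 to 19 values per comparison, where the other family genes had 19 or 20. Counts of all genes called for DHT with non-specific siRNA (900) became 2236 with the replicate block and 416 to 1361 without 1 library. For DHT with PXN siRNA (34) they became 188 with no filter on low counts, 145 with DESeq2, 346 with the block, 18 with only the groups compared and 10 to 80 without 1 library. For the interaction (0) they became 1 with DESeq2 size factors, 35 with no filter, 30 with DESeq2, 58 with the block and 0 to 45 without 1 library. Upper quartile scaling moved the median of all tested genes to 0.13 under DHT. Of 3541 values of 36 other named genes and neighbours, 41 lost a call, 11 gained one and 0 reversed. For DHT with non-specific siRNA, ELMO2 (log2 0.34), NEDD9 (-0.47), MAP2K1 (0.28), CNN2 (0.36) and LCP1 (0.49), which the naming rule also selects, each missed the threshold without at least 1 library, replicate 3 of non-specific siRNA with DHT among them. The causes were not tested. TGFB1I1, at 3 to 22 counts, is the member that depth limits.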
